A study of Mus musculus with 6 samples.

Results

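Compact myelin genes are described here through 9 members, Mbp, Mobp, Mog, Mag, Cnp, Mal, Opalin, Ermn and Cldn11, which were taken by name from the 26049 genes of a single-nucleus RNA-seq matrix of mouse hippocampus. All 9 were in the matrix. Nuclei came from male mice that carry the Tau P301S transgene of the PS19 line, a model of tau pathology in which the mouse prion promoter drives the mutant human tau. The mice had mild traumatic brain injury (TBI) by controlled cortical impact, in the right hemisphere, or a sham operation, and received an adeno-associated virus (AAV) that codes for VEGFC, a growth factor of lymphatic vessels, or for GFP. The 6 libraries were TBI VEGFC left, TBI VEGFC right, sham VEGFC right, TBI GFP left, TBI GFP right and sham GFP right hippocampus, with 1 library for each combination. All groups share the tau transgene and an AAV, so no library is free of either. The sources used here give neither the age of the mice, nor how many stand behind a library, nor the promoter of the vectors, nor whether left and right libraries share mice. P-values therefore rest on the spread between these 6 libraries, which was estimated largely over many genes together.

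The deposited matrix held 28650 nuclei with 15358208 to 18379148 unique molecular identifiers (UMIs, which count RNA molecules) per library. The authors' labels put them in 9 classes, of which oligodendrocytes had 2261 nuclei, or 313 to 476 per library. Their defining genes apart from the members, such as Sox10, Myrf and Ugt8a, were all 8 detected in this class and summed to 8000 to 9123 counts per 1000000 UMIs (CPM) across the libraries, against 9.43 to 355 CPM in the classes outside the oligodendrocyte lineage. The median oligodendrocyte nucleus had 1307 UMIs, against 4222 in excitatory neurons. A cell barcode was found in more than 1 library for 182 nuclei, 12 of them oligodendrocytes.

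Myelin is the stack of membrane that oligodendrocytes wrap around axons in the central nervous system. Myelin basic protein (MBP) and MOBP bind the inner faces of these membranes and hold them tightly together, in the layers called compact myelin. MAL is a proteolipid that sorts lipids and proteins to the sheath. The other members are myelin genes whose products lie mainly elsewhere, so the name of the group is loose: MAG faces the axon, MOG sits on the outermost surface, CNP keeps cytoplasmic channels open, claudin 11 (Cldn11) forms the tight junctions of the sheath, ermin (Ermn) is a cytoskeletal protein, and opalin is a membrane glycoprotein of oligodendrocytes. The genes are switched on late, when an oligodendrocyte precursor cell (OPC) matures, under transcription factors that include SOX10 and MYRF.

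Coordinates are those of GRCm38 (GENCODE vM21). Mobp is on the plus strand of chromosome 9 from 120149707 to 120181484, and Mog on the minus strand of chromosome 17 from 37010743 to 37023398. Mag is on the minus strand of chromosome 7 from 30899176 to 30914873, Cnp on the plus strand of chromosome 11 from 100574904 to 100591729 and Cldn11 on the plus strand of chromosome 3 from 31149920 to 31164324. Mal, from 127633226 to 127656695, and Ermn, from 58045113 to 58052864, share the minus strand of chromosome 2, and Opalin is on the minus strand of chromosome 19 from 41061710 to 41077113. The 3′ part of Cnp overlaps Dnajc7, a chaperone gene on the opposite strand, by 8912 bases, and Ermn overlaps Galnt5 on the opposite strand by 748 bases. Whether the authors' counting used the strand is not stated in the labels, so these overlaps make the counts of Cnp and Ermn less certain.

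Upstream sequences were read for the genes that differ most in how strictly they mark oligodendrocytes in the counts below, Mobp at one end and Cnp at the other, and for Mag in between. Each runs 5′ to 3′ from 250 to 51 bases before the transcription start in RefSeq (GRCm38.p6), and capitals mark a SOX core motif (ACAAAG or ACAATG, either strand) or the MYRF core motif (CTGGCAC, either strand).
Mobp, plus strand, chr9:120149492-120149691: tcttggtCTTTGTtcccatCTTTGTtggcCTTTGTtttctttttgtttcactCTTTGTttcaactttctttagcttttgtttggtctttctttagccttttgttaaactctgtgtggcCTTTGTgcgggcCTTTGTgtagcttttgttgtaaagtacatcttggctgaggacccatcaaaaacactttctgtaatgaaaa
Mag, minus strand, chr7:30914914-30915113, the first of its 3 listed promoters: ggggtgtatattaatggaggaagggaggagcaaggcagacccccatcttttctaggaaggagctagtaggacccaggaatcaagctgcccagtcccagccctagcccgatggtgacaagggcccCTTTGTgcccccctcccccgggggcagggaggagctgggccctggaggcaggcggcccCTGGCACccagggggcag
Cnp, plus strand, chr11:100574689-100574888: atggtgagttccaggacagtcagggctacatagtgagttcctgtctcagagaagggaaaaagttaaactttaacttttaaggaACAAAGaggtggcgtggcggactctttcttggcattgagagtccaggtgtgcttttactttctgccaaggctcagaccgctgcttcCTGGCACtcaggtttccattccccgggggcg
The Mobp window held 6 copies of the SOX core, all in the opposite orientation (CTTTGT), while the Mag and Cnp windows held 1 SOX and 1 MYRF core each. The 8 members with a listed promoter had 10 promoters. Of these, 6 had a SOX core in such a window (of Ermn, Mag, Mobp, Cnp and Opalin), against 21.2% of 32851 promoters in all. The first 2 Mag windows overlap and hold the same SOX core, so that 1 site is counted in 2 of the 6. By gene, 5 of the 8 members had a SOX core. The last of the 3 Mag windows held no match. A MYRF core was found in 2 of the 10, of Mag and Cnp, against 3.35% of all promoters. These matches are letters in a window and were not tested as binding sites.

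Oligodendrocytes held most of the RNA of 8 of the 9 members. Of all UMIs of Mobp in the matrix, 92.1% lay in oligodendrocyte nuclei, which were 7.89% of nuclei. The share was 88.1% for Ermn, 86.1% for Mog, 83.0% for Mag, 76.6% for Mbp, 76.4% for Opalin, 64.0% for Cldn11 and 59.2% for Mal. Cnp stood apart at 28.3%, with 37.3% of its UMIs in excitatory neurons and 13.6% in inhibitory neurons. For the 9 together the share was 75.1%. By library it was 80.6% in TBI VEGFC left, 78.7% in TBI VEGFC right, 65.6% in sham VEGFC right, 70.3% in TBI GFP left, 77.1% in TBI GFP right and 75.5% in sham GFP right, with exact binomial 95% intervals that cover counting error only, the widest being 64.4% to 66.8% in sham VEGFC right. The share depends on the depth kept: with only nuclei of at least 2000 UMIs, 187 oligodendrocytes were left and the share was 35.6%. Levels by class are descriptions here and were not tested, since the classes were defined on the expression of the same nuclei.

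Single oligodendrocyte nuclei carried the program broadly. The median nucleus had UMIs of 5 of the 9 members, 97.7% had 3 or more, and 98.1% had at least 1 UMI of Mbp, against 2.02% of astrocytes (median depth 1671 UMIs). Mog was found in 79.6%, Mag in 74.7%, Mobp in 74.5%, Mal in 56.0%, Ermn in 46.6%, Cldn11 in 45.2%, Opalin in 33.6% and Cnp in 26.5% of oligodendrocyte nuclei. Outside the class, the share of nuclei with 3 or more members was 2.82% in OPC and at most 0.867% elsewhere. Among the 2261 oligodendrocyte nuclei the ranks of any 2 members went with each other only weakly, with Spearman correlations of at most 0.1 over sparse counts that share the depth of the nucleus.

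Between libraries, the summed level of the 9 members in oligodendrocytes was nearly flat. It was 9588 CPM in TBI VEGFC left, 9871 CPM in TBI VEGFC right, 9495 CPM in sham VEGFC right, 9750 CPM in TBI GFP left, 9413 CPM in TBI GFP right and 9491 CPM in sham GFP right. No library stood apart from the others, and the library with the most oligodendrocyte nuclei, TBI GFP right, had the lowest sum. Mbp had a mean of 3826 CPM ± 133 (SD, n = 6 libraries) with a ratio of 1.10 between its highest and lowest library, and Cldn11 had 455.5 CPM ± 16.0 with a ratio of 1.09. The ratio was 1.16 for Mal, 1.22 for Mag, 1.24 for Opalin, 1.28 for Mobp, 1.29 for Mog, 1.36 for Ermn and 1.52 for Cnp, which also had the fewest UMIs, 98 to 151 per library.

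**Figure D1:**
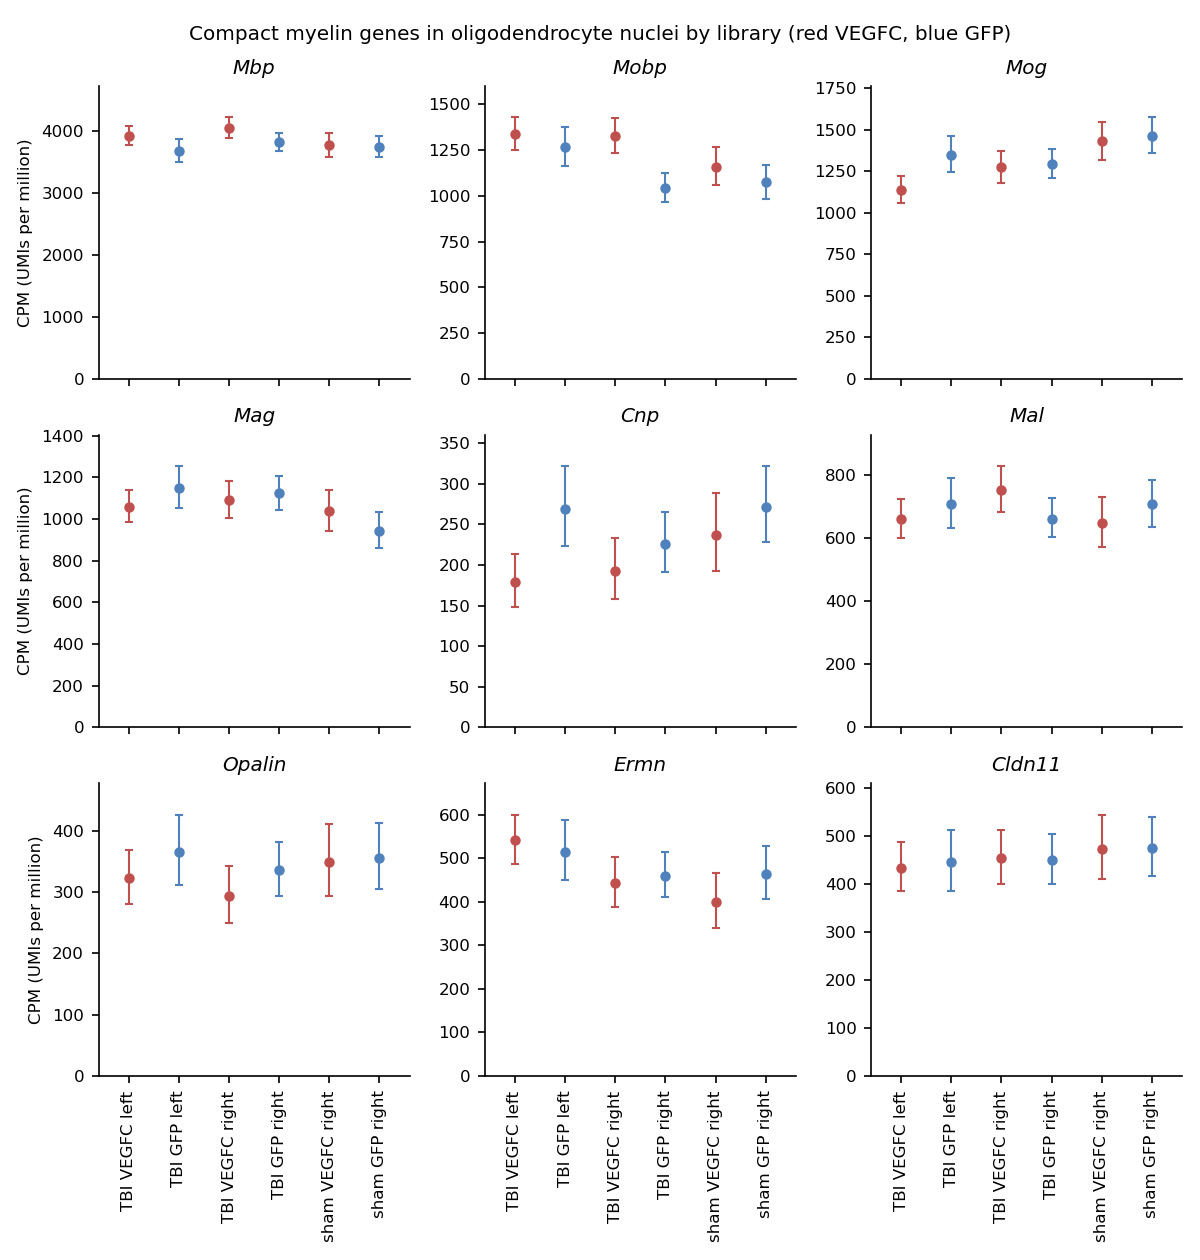
Level of each of the 9 genes in oligodendrocyte nuclei, in CPM on axes that start at 0, for the 6 libraries (red VEGFC, blue GFP). Points are sums over the nuclei of a library and bars are exact Poisson 95% intervals, which cover counting error only. Mbp lies between 3678 and 4043 CPM in all libraries, while Cnp ranges from 179 to 272 CPM.

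The first comparison asked whether AAV-VEGFC changed the program in oligodendrocytes against AAV-GFP, across TBI left, TBI right and sham right. No member passed: 0 of 9 had an adjusted p under 0.05 in the quasi-likelihood test of edgeR, where 0.125% of the 8025 genes tested in this class did. At an unadjusted p under 0.05 there were 2 of 9 in edgeR, 2 of 9 in limma-voom and 0 of 9 in DESeq2, with 0 past the adjusted threshold in each. The median log2 fold of the 9 was 0.00 (5 above 0 and 4 below), the same as the median over all genes tested.

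Cnp, the phosphodiesterase that keeps myelin channels open, came nearest to the threshold. It was at 179 CPM in TBI VEGFC left, 193 CPM in TBI VEGFC right and 237 CPM in sham VEGFC right, against 269 CPM in TBI GFP left, 226 CPM in TBI GFP right and 272 CPM in sham GFP right. In each of the 3 settings the VEGFC library was the lower, and the 2 groups overlapped. The fitted log2 fold was -0.32 (SE 0.13, 95% interval -0.59 to -0.06, adjusted p = 0.745 by edgeR). It was -0.20 without TBI VEGFC left and -0.21 without TBI GFP left, the pair with the largest difference, and -1.29, also not passing, with only nuclei of at least 2000 UMIs.

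Mobp was at 1338 CPM in TBI VEGFC left, 1327 CPM in TBI VEGFC right and 1158 CPM in sham VEGFC right, against 1266 CPM in TBI GFP left, 1043 CPM in TBI GFP right and 1074 CPM in sham GFP right. Here the VEGFC library was the higher in each setting, and the groups overlapped. The log2 fold was 0.20 (SE 0.09, 95% interval 0.02 to 0.38, adjusted p = 0.793 by edgeR), and without TBI GFP right or TBI VEGFC right it was 0.11. Mobp and Cnp thus had fitted folds of opposite sign, and neither passed over all genes.

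For Mbp the 3 VEGFC libraries had 3916, 4043 and 3766 CPM in TBI left, TBI right and sham right, against 3678, 3818 and 3736 CPM in the matching GFP libraries. The log2 fold was 0.08 (SE 0.08) with a 95% interval of -0.08 to 0.24. The other 6 members had log2 folds of -0.12 (Opalin) to 0.01 (Mal and Cldn11), and their intervals all included 0 and lay between -0.36 and 0.23. Mag, the axon-facing adhesion molecule, had 1059, 1090 and 1037 CPM in the VEGFC libraries of TBI left, TBI right and sham right, against 1150, 1124 and 943 CPM in the GFP libraries, with a fold of 0.00.

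In the right hippocampus, TBI was next set against sham. Again 0 of 9 members passed in oligodendrocytes by edgeR, DESeq2 and limma-voom, and 0 of 9 had an unadjusted p under 0.05 in any of the 3 tools, where 0.0997% of 8025 genes passed in edgeR. Mag had 1090 and 1124 CPM in the TBI VEGFC and TBI GFP libraries, against 1037 and 943 CPM in the sham VEGFC and sham GFP libraries. The groups did not overlap, and the log2 fold was 0.18 (SE 0.12, adjusted p = 0.945).

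Mog, the surface glycoprotein of the outer sheath, had 1273 and 1293 CPM in the TBI VEGFC right and TBI GFP right libraries, against 1429 and 1463 CPM in the sham VEGFC and sham GFP libraries, a log2 fold of -0.16 (SE 0.11, adjusted p = 0.949). Cnp had 193 and 226 CPM in the TBI right libraries, in the same order of vectors, against 237 and 272 CPM in the sham libraries, a log2 fold of -0.27 (SE 0.16, adjusted p = 0.904). In both genes the groups did not overlap, and the same held for Mbp, Opalin and Cldn11. With so few libraries on a side this weighs little, and its share over all genes was not counted. None of Mag, Mog and Cnp had an adjusted p under 0.05. The fold of Cnp was 0.26 with only nuclei of at least 2000 UMIs and -0.17 without TBI GFP right. The other 6 members had log2 folds of -0.15 (Opalin) to 0.09 (Mobp).

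Within TBI, the left hippocampus, away from the impact, was then set against the right. Of the 9 members 0 passed by edgeR, DESeq2 or limma-voom and 0 had an unadjusted p under 0.05, where 0.0249% of 8025 genes passed in edgeR. Ermn had the largest fold, 0.24 (SE 0.13, adjusted p = 0.998), with 541 and 515 CPM in the TBI VEGFC left and TBI GFP left libraries, against 443 and 460 CPM in the TBI VEGFC right and TBI GFP right libraries. The 2 sides did not overlap for Ermn. The other 8 members lay between -0.04 and 0.15. This comparison and the one with sham share the TBI right libraries.

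**Figure D2:**
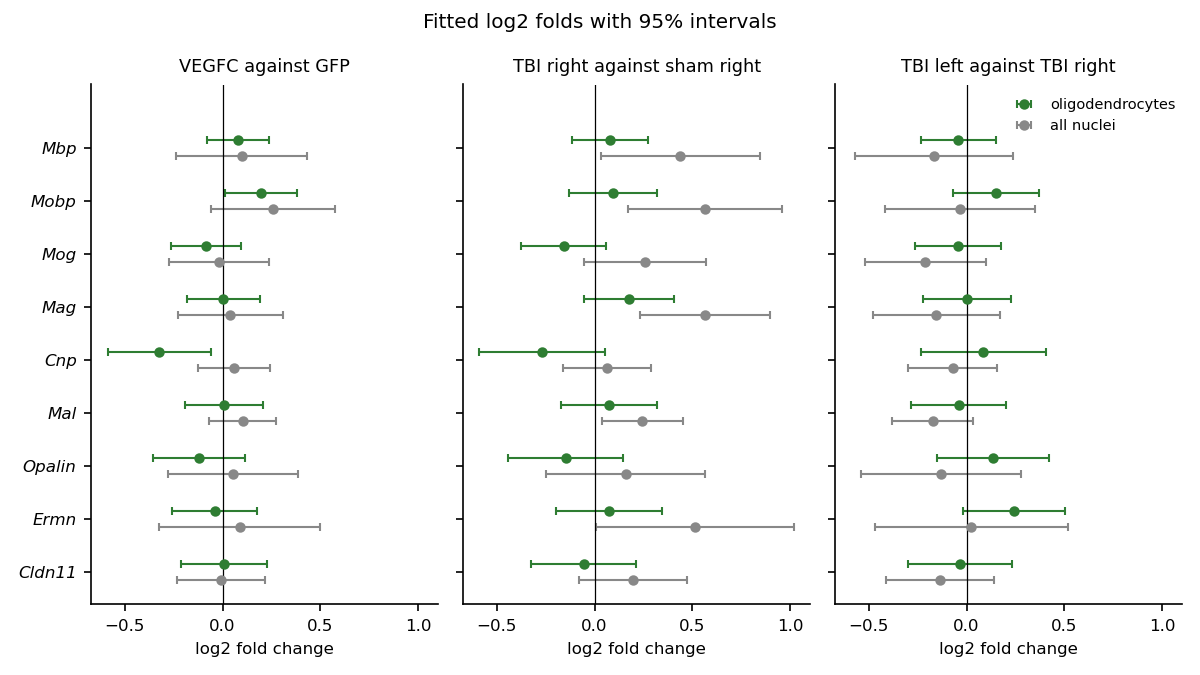
Fitted log2 fold changes of the 9 genes with 95% intervals, in oligodendrocytes (green) and summed over all nuclei (grey), in 3 panels: VEGFC against GFP, TBI right against sham, and TBI left against right. In oligodendrocytes the folds lie between -0.32 and 0.24, while over all nuclei all 9 are above 0 for TBI right against sham right.

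Other genes of the oligodendrocyte program were read from 4 lists. For VEGFC against GFP, 0 of 31 other sheath genes, 0 of 16 lipid enzymes, 0 of 13 transcription factors and 0 of 9 genes of newly formed oligodendrocytes passed in edgeR, with median log2 folds of 0.03, 0.08, 0.05 and 0.07, against 0.00 over all genes. For TBI right against sham right 0 members of each list passed, with medians of -0.06, -0.15, -0.03 and 0.08, in the same order. For TBI left against TBI right 0 passed, with medians of 0.02, 0.03, 0.01 and -0.04. The unadjusted p was under 0.05 for 3, 5 and 1 of these tested entries in the 3 comparisons by edgeR, and Tcf7l2 and Bcas1 each stand in 2 lists. Over all 8025 genes it was under 0.05 for 471, 462 and 321.

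Summed over all nuclei the picture differed for TBI. All 9 members had log2 folds above 0 for TBI right against sham right, from 0.07 (Cnp) to 0.56 (Mobp and Mag), with a median of 0.26. Mag was at 44.7 and 52.6 CPM over all nuclei in the TBI VEGFC right and TBI GFP right libraries, against 31.0 and 35.2 CPM in the sham VEGFC and sham GFP libraries, without overlap. Its fold of 0.56 (SE 0.15) had an adjusted p of 0.844, and 0 of 9 members passed in edgeR, DESeq2 or limma-voom, with 5, 1 and 5 at an unadjusted p under 0.05. The share of genes called at the adjusted threshold was 0.00519% of 19250 in edgeR. No share is given for the unadjusted p or for folds above 0, so these member counts have no background.

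The share of oligodendrocytes among nuclei moved with this. It was 9.06% and 9.62% in TBI VEGFC right and TBI GFP right, against 5.21% and 7.70% in sham VEGFC and sham GFP, and 11.7% and 5.95% in TBI VEGFC left and TBI GFP left. The summed level of the members over all nuclei was 453 and 475 CPM in TBI VEGFC right and TBI GFP right, against 326 and 391 CPM in sham VEGFC and sham GFP, and 496 and 351 CPM in TBI VEGFC left and TBI GFP left. Both measures put the 6 libraries in the same order, whereas the level within oligodendrocytes did not follow it. In the sums alone, the number of cells of a type and the RNA per cell cannot be told apart. Read by class, the share of oligodendrocytes ran from 5.21% to 11.7% of nuclei, and the level within them from 9413 to 9871 CPM. What set the share of nuclei was not tested. Leaving out 1 library made calls here: without sham GFP right, 3 members passed for TBI right against sham right (Mobp at 0.94, Mbp at 0.81 and Mag at 0.73), and Mag alone passed at 0.56 without TBI GFP left or TBI VEGFC left. Without sham GFP right, sham VEGFC right, the library with the lowest share of oligodendrocytes, is the only sham library, and its spread is assumed to be that of the TBI libraries.

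For VEGFC against GFP over all nuclei, 0 of 9 members passed by edgeR, DESeq2 or limma-voom, 0 had an unadjusted p under 0.05, and 0% of 19250 genes were called. Mobp had the largest fold, 0.26 (SE 0.14), and passed, at 0.49, only without sham GFP right, where the fold comes from the TBI libraries alone. Mobp was at 58.7 CPM in TBI VEGFC left, 51.4 CPM in TBI VEGFC right and 29.6 CPM in sham VEGFC right, against 36.3, 44.5 and 35.2 CPM in the matching GFP libraries, so that VEGFC was higher in both TBI settings and lower in sham. For TBI left against TBI right 0 of 9 passed by the 3 tools, 0 had an unadjusted p under 0.05, and 0% of 19250 genes were called, with folds of -0.21 to 0.03.

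**Figure D3:**
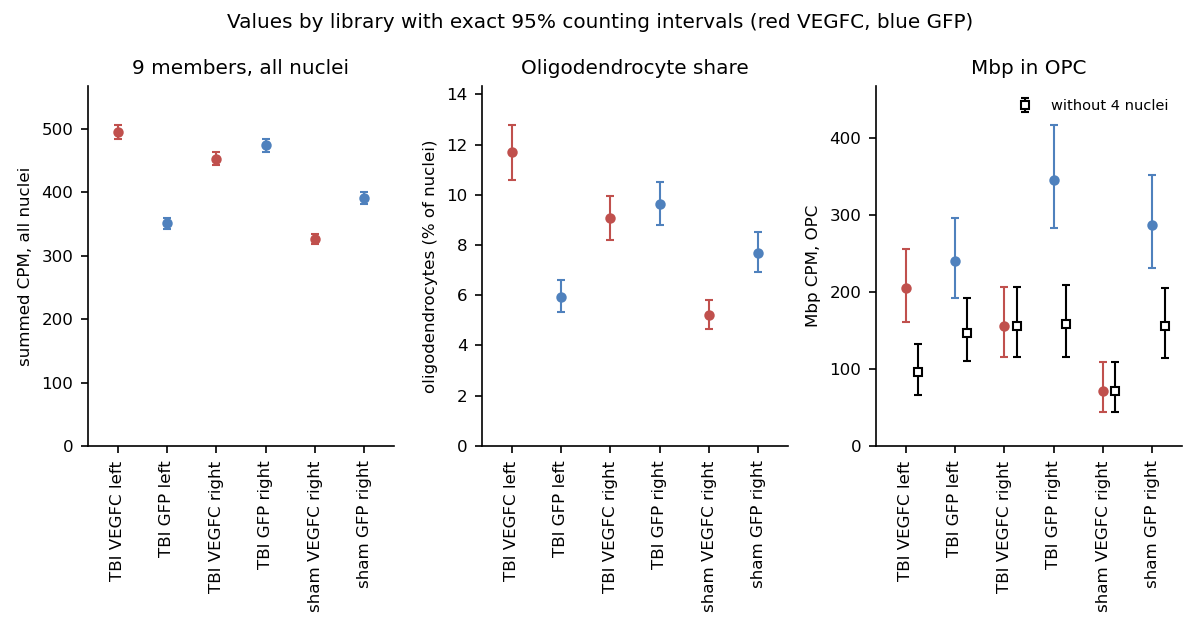
Values in the 6 libraries (red VEGFC, blue GFP) with exact 95% counting intervals: the summed level of the 9 genes over all nuclei in CPM, the share of oligodendrocytes among nuclei in percent, and the level of Mbp in OPC in CPM, with open squares for OPC without 4 nuclei rich in myelin RNA. The first 2 panels put the libraries in the same order, from TBI VEGFC left at 496 CPM and 11.7% to sham VEGFC right at 326 CPM and 5.21%, and in the last panel the 4 libraries with such a nucleus are lower without it, TBI GFP right at 158 CPM.

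OPC, the precursors of oligodendrocytes, carried little of the program. Over their 993 nuclei Mbp was at 219 CPM, against 3839 CPM in oligodendrocytes, and Mag at 49.3 CPM, against 1070 CPM. Mbp in OPC was at 205 CPM in TBI VEGFC left, 156 CPM in TBI VEGFC right and 71.2 CPM in sham VEGFC right, against 240 CPM in TBI GFP left, 346 CPM in TBI GFP right and 288 CPM in sham GFP right. All 3 VEGFC libraries were below all 3 GFP libraries. The log2 fold was -0.97 (SE 0.21, 95% interval -1.39 to -0.55), with an unadjusted p of 6.13e-05 and an adjusted p of 0.411 by edgeR over all genes. In the classes other than oligodendrocytes together, 0 of 37 tested member and class pairs passed by edgeR, DESeq2 or limma-voom for the vector. In edgeR 0.0176% of 73823 pairs passed. At an unadjusted p under 0.05 there were 6, 1 and 5, with no share over all pairs given.

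This fold rests on few nuclei. Of the 431 Mbp UMIs in OPC, 61.5% came from 10 nuclei and 41.1% from 4 nuclei in which the members made up over 1% of UMIs. Of these 4, 1 each lay in TBI VEGFC left, TBI GFP left, TBI GFP right and sham GFP right. They had 0 UMIs of Pdgfra, the growth factor receptor that defines OPC, and UMIs of 3 to 5 of 8 oligodendrocyte markers and 0 to 2 of 9 OPC markers. Of 15 genes known from newly formed oligodendrocytes, such as Enpp6, Bcas1 and Itpr2, they had UMIs of 8 to 12, with a median of 12. The other OPC nuclei of at least 4000 UMIs, 23 in number, had 1 to 13, with a median of 5. Oligodendrocytes, at a median depth of 1307 UMIs, had 0 to 8, with a median of 2. The depth was alike, with a median of 4614 UMIs in the 4 nuclei and 4543 in the 23 others. The 8 and 9 markers were not counted in the other OPC nuclei, so whether the class label suits these 4 nuclei was not tested.

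Without them Mbp in OPC was at 95.8 CPM in TBI VEGFC left, 156 CPM in TBI VEGFC right and 71.2 CPM in sham VEGFC right, against 147 CPM in TBI GFP left, 158 CPM in TBI GFP right and 156 CPM in sham GFP right. The log2 fold was then -0.50 and did not pass. The 4 nuclei were chosen by their member UMIs, most of which are Mbp, and 3 of the 4 lie in GFP libraries, so a smaller fold follows from the choice and the value is a description. Other settings made a call: Mbp passed in OPC for the vector with library totals, with no filter on low counts (-0.96), with nuclei of at least 2000 UMIs (-1.33), without nuclei of shared barcodes (-0.97), and without TBI GFP left or TBI VEGFC left (-1.48 each). Mag had a log2 fold of -0.99 (SE 0.31, adjusted p = 0.867) and Mobp of -1.30 (SE 0.47, adjusted p = 0.876) in OPC, on 7 to 24 and 1 to 20 UMIs per library. The 4 nuclei add to these counts too.

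For the 2 injury comparisons, 0 of 37 member and class pairs outside oligodendrocytes passed by edgeR, DESeq2 or limma-voom. At an unadjusted p under 0.05 there were 1, 0 and 1 for TBI right against sham right, where 0.0759% of 73823 pairs passed in edgeR, and 0 in each tool for TBI left against TBI right, where 0.0325% did. All 9 members passed the filter on low counts in excitatory neurons, 8 in astrocytes and inhibitory neurons, 7 in OPC, 3 in choroid plexus epithelium and 2 in the mixed neuron class. In microglia and fibroblasts 0 passed it, so nothing was tested there.

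A further edgeR fit, added after seeing the data, compared the VEGFC fold after TBI with that after sham, taking both TBI sides as replicates. The sham fold there is 1 VEGFC library against 1 GFP library, the spread comes from the TBI sides alone, and these may share mice, so the p-values may be too small. In oligodendrocytes 0 of 9 members differed, with 0 at an unadjusted p under 0.05, where 0.170% of 8806 genes passed. Over all nuclei 0 of 9 passed, with 3 at an unadjusted p under 0.05 (Mobp, Mbp and Ermn, at differences of 0.72, 0.68 and 0.76 on the log2 scale), where 0.0151% of 19848 passed. Outside oligodendrocytes 0 member and class pairs passed, where 0.235% of 77497 pairs did. In inhibitory neurons all 8 differences were below 0, from -3.09 (Mobp) to -0.02 (Cnp). In excitatory neurons Mbp (0.28) and Cnp (0.16) were above 0 and the others below, down to -1.57 (Mog). In OPC the difference of Mbp was 1.36. Unadjusted p-values of this fit are not counted for any class, since 1 library stands on each side of the sham fold. The smallest adjusted p was 0.236, for Mog in excitatory neurons.

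Outside the oligodendrocyte lineage every member was detected in every class, at trace levels. In droplet data such traces can include RNA that floats free in the suspension, and its part here was not tested. Mal, the raft proteolipid, had a like share of nuclei in all 7 of these classes. It had a UMI in 4.22% of mixed neurons, 5.06% of astrocytes, 5.32% of excitatory neurons, 5.84% of inhibitory neurons, 5.95% of choroid plexus nuclei, 6.31% of fibroblasts and 7.14% of microglia, a ratio of 1.69 between the highest and the lowest, although the median depth of these classes ran from 1260 to 4298 UMIs. Per UMI it was less alike: with each nucleus thinned to 1000 UMIs, the share for Mal ran from 1.14% in mixed neurons to 5.47% in microglia. Without thinning the ratio was 1.64 for Mag, at 1.92% to 3.16% of nuclei, and 1.48 for Cldn11, at 2.67% to 3.96%. Per nucleus, Mal stood at 4.40% to 7.36% of its oligodendrocyte level in these 7 classes, Mag at 1.31% to 2.21% and Cldn11 at 4.34% to 8.58%.

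Of the other members, Mobp was at 0.141% (fibroblasts, on 1 UMI) to 0.682% (astrocytes) of its oligodendrocyte level per nucleus, and Ermn at 0.714% to 1.50%. Mog was at 1.03% to 2.13% and Opalin at 1.07% to 4.05%. In fibroblasts and microglia these rest on 1 to 30 UMIs for each member, Mobp, Ermn and Opalin on 1 to 8.

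For Mbp the share of nuclei differed more. It had a UMI in 2.02% of astrocytes (95% exact interval 1.67 to 2.42), 3.88% of fibroblasts, 6.65% of microglia, 9.13% of inhibitory neurons, 12.6% of choroid plexus nuclei, 13.2% of mixed neurons and 16.0% of excitatory neurons (15.4 to 16.7), a ratio of 7.93 between the highest and the lowest. With each nucleus thinned to 1000 UMIs the share was 1.14% in astrocytes, 4.28% in excitatory neurons and 5.26% in choroid plexus nuclei. On the CPM scale Mbp was at 13.5 in astrocytes, against 26.1 to 55.6 in the other 6 classes. Its range there was no wider than those of the genes with like shares, which were 9.59 to 51.2 CPM for Mal, 4.51 to 23.0 CPM for Mag and 6.13 to 37.7 CPM for Cldn11. Astrocytes were thus the lowest on each of these scales, while the order of the other classes differed between scales.

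Mbp was also set against the UMIs of Mal, Mag and Cldn11 together, a comparison chosen after seeing the data. Since these 3 genes had like amounts per nucleus, the ratio follows the scale per nucleus, where excitatory neurons had 7.71 times the Mbp of astrocytes, against 3.06 times on the CPM scale. The ratio was 1.73 Mbp UMIs per UMI of these 3 genes in oligodendrocytes, with 1.59 to 1.82 in single libraries. It was 0.230 in astrocytes, with 0.175 to 0.323, and 1.77 in excitatory neurons, with 1.32 to 2.63, so that astrocytes and excitatory neurons did not overlap in any library. The ratio was 0.959 in inhibitory neurons, 1.41 in mixed neurons and 1.16 in choroid plexus epithelium. In classes with few UMIs it was 0.50 in microglia (0.250 to 0.733 in single libraries) and 0.269 in fibroblasts (0.111 to 2.00).

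**Figure D4:**
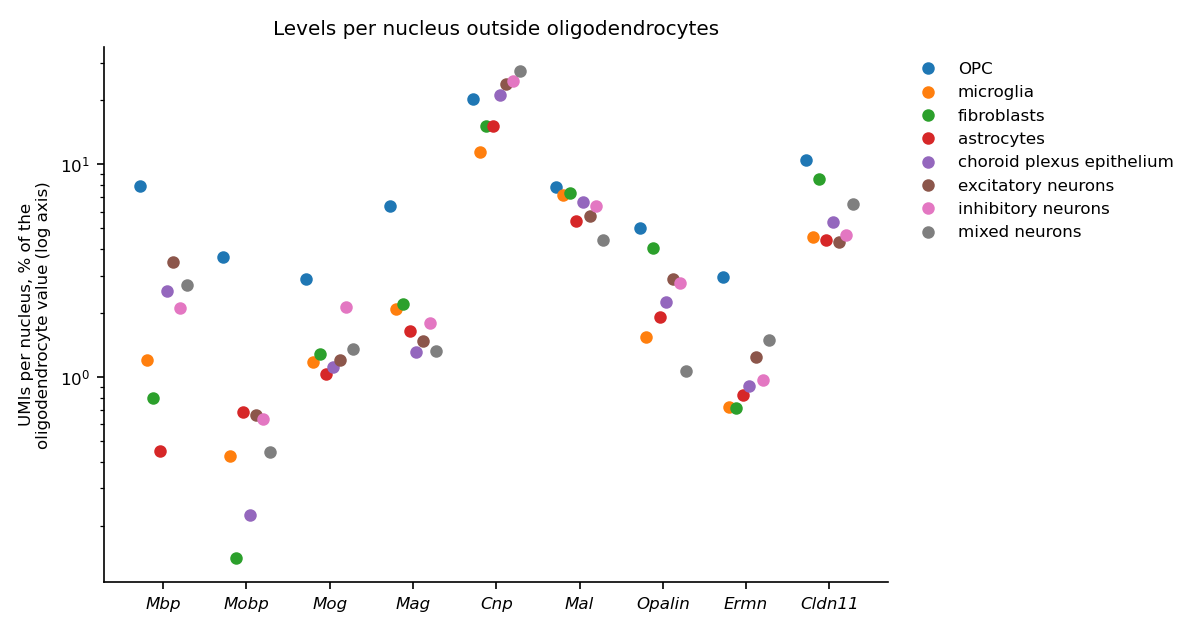
UMIs per nucleus of each gene in 8 classes, as a percent of the value in oligodendrocytes, on a log axis, over all libraries. Outside OPC, Mal lies between 4.40% and 7.36% in all 7 classes, Mbp spreads from 0.450% to 3.47%, and Cnp lies above the rest at 11.5% to 27.4%.

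Within excitatory neurons the Mbp trace differed between the authors' clusters. Clusters 2, 3 and 8, which had Prox1, a gene of dentate granule neurons, at 228, 317 and 280 CPM, had Mbp at 61.5, 52.2 and 86.3 CPM. Cluster 1, with Prox1 at 0.733 CPM, had Mbp at 25.8 CPM, cluster 4 had 18.4 CPM and cluster 12 had 9.44 CPM. Over single libraries the range was 54.9 to 73.1 CPM in cluster 2, 46.6 to 60.0 CPM in cluster 3 and 71.2 to 103 CPM in cluster 8, against 22.6 to 33.0 CPM in cluster 1 and 8.39 to 27.6 CPM in cluster 4. The first 3 clusters did not overlap the other 2 in any library. A high Mbp level was not limited to clusters with Prox1: 7 of the 16 clusters, with Prox1 at 0 to 1.77 CPM (6, 7, 9, 10, 13, 14 and 16), had Mbp at 51.8 to 89.4 CPM, and cluster 16, with no Prox1 UMI, was the highest. Per 1000 nuclei the Mbp trace was 203, 220 and 374 UMIs in clusters 2, 3 and 8, against 139 in cluster 1, 120 in cluster 4 and 50.7 in cluster 12. The ratios were smaller on that scale, and the median depth was 3033, 3928 and 4034 UMIs in clusters 2, 3 and 8, against 5112, 6496 and 5008 UMIs in clusters 1, 4 and 12. The authors' clusters rest on the expression of the same nuclei, so this is a description.

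In inhibitory neurons Mbp was at 41.2 CPM in cluster 2 and 43.7 CPM in cluster 5, against 13.7 CPM in cluster 1, 15.2 CPM in cluster 6 and 14.5 CPM in cluster 8. Mal was at 12.9 to 18.2 CPM in the 7 inhibitory clusters, with 13.4 CPM in cluster 2 and 12.9 CPM in cluster 1. Mbp, on the plus strand of chromosome 18, has 16 annotated transcripts with 12 different starts spread over 88.1 kb. The upstream starts give the golli transcripts, which are known from neurons and immune cells as well as oligodendrocytes and share exons with the myelin form. Counts per gene cannot separate them, so which transcripts the neuronal UMIs come from was not tested.

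**Figure D5:**
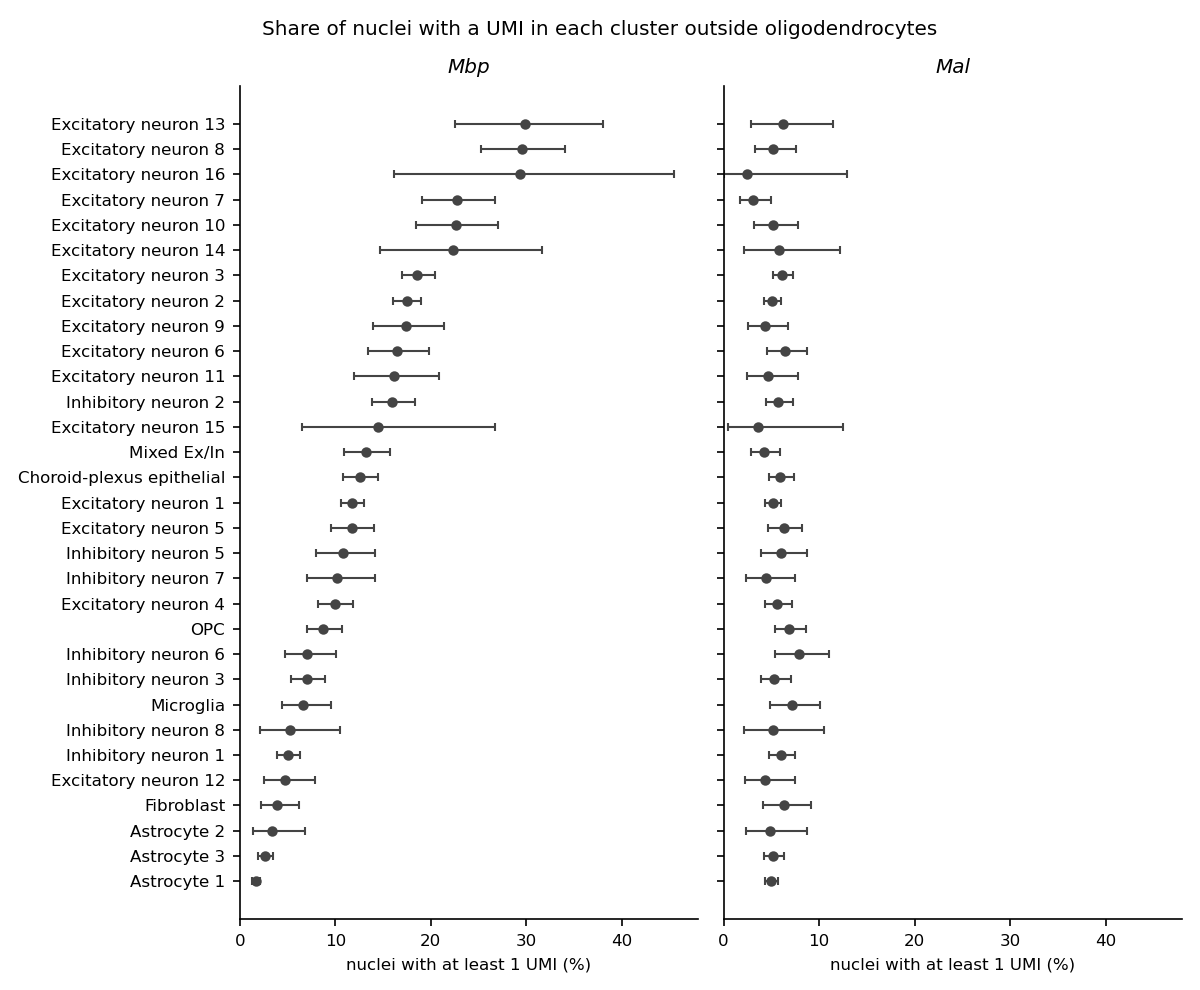
Percent of nuclei with at least 1 UMI of Mbp (left) and of Mal (right) in each cluster of the authors outside oligodendrocytes, ordered by Mbp, with exact binomial 95% intervals. Mbp runs from 1.66% in astrocyte cluster 1 to 29.9% in excitatory cluster 13, while Mal stays between 2.44% in excitatory cluster 16 and 7.85% in inhibitory cluster 6.

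In excitatory neurons as a whole the Mbp level was 43.6 CPM in TBI VEGFC left, 43.6 CPM in TBI VEGFC right and 38.8 CPM in sham VEGFC right, against 39.0 CPM in TBI GFP left, 42.4 CPM in TBI GFP right and 42.2 CPM in sham GFP right, on 374 to 417 UMIs each. The log2 fold for the vector was 0.05 and did not pass, and the groups overlapped. The sum of the other 8 members there was at 43.0 CPM in TBI VEGFC left, 51.7 CPM in TBI VEGFC right and 65.0 CPM in sham VEGFC right, against 53.8 CPM in TBI GFP left, 54.6 CPM in TBI GFP right and 44.4 CPM in sham GFP right. Per 1000 nuclei this sum was 267 UMIs in TBI VEGFC left, 246 in TBI VEGFC right and 249 in sham VEGFC right, against 221 in TBI GFP left, 257 in TBI GFP right and 215 in sham GFP right. The order of the libraries thus differed between the 2 scales.

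Cnp was the member with the highest level outside oligodendrocytes in proportion to that inside. Per nucleus it stood at 11.5% of the oligodendrocyte level in microglia, 15.1% in astrocytes and fibroblasts, 21.1% in choroid plexus epithelium, 24.0% in excitatory neurons, 24.8% in inhibitory neurons and 27.4% in mixed neurons. Its UMIs per UMI of Mal, Mag and Cldn11 together were 0.102 in oligodendrocytes, 0.453 in astrocytes and 0.719 in excitatory neurons. As a level it was 16.8 to 32.8 CPM in these 7 classes and 225 CPM in oligodendrocytes. Dnajc7, which overlaps it on the other strand, was at 83.3 to 207 CPM in the same 7 classes and at 156 CPM in oligodendrocytes. The part of this overlap in the Cnp trace was not tested.

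Among the genes whose level over the 54 sums of 9 classes and 6 libraries went most closely with the mean of the members were Insc (Pearson r of 0.953), Otud7b (0.939), Fbxw15 (0.936), Sept7 (0.933), Slc13a1 (0.926), Galnt5 (0.925), Cyp2j12 (0.921), Sh3tc2 (0.916) and Nipal4 (0.905). They were chosen by that correlation among 3593 genes, and the 54 points share libraries and classes, so this is a description. Galnt5 is the gene that overlaps Ermn, and it had 740 UMIs in oligodendrocytes and 0 to 24 in each other class. Sh3tc2 is known in humans for a demyelinating disease of peripheral nerves. Of the members themselves, Mobp had the highest correlation with the mean, 0.946, and Cnp the lowest, 0.758. Insc was at 142 to 186 CPM in oligodendrocytes, at 2.69 to 18.8 CPM in OPC and at most at 1.53 CPM in any other class and library. Fbxw15, at 65.3 to 136 CPM in oligodendrocytes, was at most at 3.13 CPM in OPC and 0.611 CPM elsewhere, so both had a lower trace outside the lineage than Mbp, at up to 78.8 CPM.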

How the data were processed

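Nuclei of dissected, frozen hippocampi were sequenced with a 3′ kit of 10x Genomics, per the labels. The submitters' processing notes name Cell Ranger 7.0.1, Scanpy and mm10, with no settings, and the sources used here do not say whether intronic reads were counted. Values in the matrix are raw UMI counts, as deposited. The deposited metadata hold the authors' class and cluster of a nucleus, the percent of its UMIs from mitochondrial and ribosomal genes, and a doublet score, which reached 0.099. All nuclei were kept and no doublet caller was run.

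Counts were summed per class and library and tested with edgeR 4.0.16 in R 4.3.3 (filterByExpr, TMM, quasi-likelihood) with terms for context (TBI left, TBI right, sham right) and vector, which leaves 2 residual degrees of freedom. The spread of a gene is partly borrowed from other genes. P-values were adjusted by Benjamini-Hochberg over all genes of a fit, with a threshold of 0.05. SEs were obtained as |log2 fold|/√F from the quasi-likelihood F statistic. CPM are UMIs per 1000000 in a class, without length correction. Intervals on levels are exact Poisson and on shares exact Clopper-Pearson. The steps were tested on simulated data. Alternatives were RLE factors, library totals, no filter, DESeq2 1.42.0, limma-voom 3.58.1, dropping 1 model term, filters on nuclei (at least 2000 UMIs, doublet score at most 0.05, purity), and each library left out. Dropping nuclei of shared barcodes and the fit with both TBI sides as replicates were added after seeing the data. The members, lists and rules were chosen with earlier results of these data known. The text names the 9 members, the 10 genes most like them, and list members past the threshold, of which there were none. A gene that the likeness rule, a list and a marker set would hold is not reported here. Other names serve as checks.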

Additional observations from a re-analysis of the deposited data

How the results depend on the processing

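In oligodendrocytes 0 of 9 members passed for each of the 3 comparisons under every setting run, which were another scaling (RLE factors or library totals), all genes kept, DESeq2, limma-voom, 1 model term dropped, the 3 filters on nuclei, nuclei of shared barcodes left out, and each library left out. Of 432 alternative folds of members there, 41 had another sign than the reported one. In the other classes the count for VEGFC against GFP was 1 with library totals, 1 with no filter on low counts, 1 with nuclei of at least 2000 UMIs and 1 without nuclei of shared barcodes, and 0 to 1 with 1 library left out. Each time the gene was Mbp in OPC. With a doublet score of at most 0.05, the count was 1 for TBI right against sham right and 1 for TBI left against TBI right, again Mbp in OPC, at 1.73 and -2.03. Of the 4 OPC nuclei rich in myelin RNA, that filter keeps the 1 in TBI GFP right. Over all nuclei, leaving out 1 library gave 0 to 1 members for VEGFC against GFP and 0 to 3 for TBI right against sham right. The share of member UMIs in oligodendrocytes was 35.6% with at least 2000 UMIs per nucleus, which leaves 187 oligodendrocytes. It was 84.2% with a doublet score of at most 0.05, which leaves 2236 of 2261 oligodendrocytes but 18659 of all 28650 nuclei. Why this filter removes more nuclei of other classes was not tested. It was 73.8% to 76.7% with 1 library left out. The doublet filter could not be fitted in microglia and fibroblasts, where it left a library without nuclei.

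No paired analysis was possible because each combination of injury, vector and side has 1 library and the replicate numbers are not shared between groups. The term for context compares the vectors within TBI left, TBI right and sham right.

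Depth limits what can be said of traces: fibroblasts and microglia had 1 to 30 UMIs of each member over all libraries.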
